A study of Mus musculus with 6 samples.

Results

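The 10 genes described here make, control and break down the polyamines: Odc1, Amd1, Srm and Sms encode the synthetic enzymes, Oaz1, Oaz2 and Azin1 control the Odc1 protein, and Sat1, Paox and Smox are catabolic. They were chosen by name, with earlier results of these data known. As the rows of the deposited tables that carry these symbols, they make up 10 of 55076 rows. RNA-seq was done on the anterior prostate (AP) of male mice aged 20 weeks, with 3 OEx and 3 Ctrl libraries. OEx mice (Pbsn-Cre Rosa26 N1ICD/+, genotype N1ICD-Oex in the labels) express the intracellular domain of Notch1 from Rosa26 once the prostate epithelial Pbsn-Cre has acted. Ctrl mice carry Rosa26 N1ICD/+ without Cre according to the paper, whereas the labels give their genotype as "Wild type". The labels do not say whether tissue of several animals went into a library, so p-values measure only the spread between these 6 libraries.

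Polyamines (putrescine, spermidine and spermine) are small cations that bind nucleic acids and are needed for cell growth, and the prostate makes and secretes large amounts of them. Ornithine decarboxylase (Odc1) makes putrescine from ornithine, S-adenosylmethionine decarboxylase (Amd1) makes the aminopropyl donor, and spermidine synthase (Srm) and spermine synthase (Sms) use that donor to build spermidine and then spermine. Antizymes (Oaz1, Oaz2) bind the Odc1 protein and send it to the proteasome, the antizyme inhibitor Azin1 holds antizyme away from Odc1, and acetylation by Sat1 followed by oxidation by Paox, or direct oxidation of spermine by Smox, turns the chain back.

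Several of these genes carry short regulatory sequences in their transcripts, which are shown because they let the protein output depend on the polyamines themselves and because mRNA levels alone were measured here. The mRNA of Amd1 has a short upstream reading frame of 6 codons before its stop codon, on the minus strand at chr10:40302151-40302179, and its near-copy Amd2 has the same letters at chr10:35711856-35711884 on the minus strand (RefSeq, GRCm38.p6). The capitals run from the start codon to the stop codon of that frame.
Amd1: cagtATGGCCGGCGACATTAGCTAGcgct
Amd2: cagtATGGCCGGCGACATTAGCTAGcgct
Antizyme mRNAs are read through a programmed ribosomal frameshift that polyamines favour. The stop codon that the frameshift passes over, in capitals, lies at chr10:80828295-80828297 in Oaz1 and at chr9:65686272-65686274 in Oaz2, both on the plus strand (GENCODE M21 transcripts, GRCm38).
Oaz1: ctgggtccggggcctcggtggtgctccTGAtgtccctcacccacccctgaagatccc
Oaz2: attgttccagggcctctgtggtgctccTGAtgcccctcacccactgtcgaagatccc
These stretches of 57 bases matched at 47 of 57 positions.

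The recovered depth was 14905822, 17009324 and 14772007 reads in OEx and 17236734, 17745162 and 18655462 reads in Ctrl. Values are FPKM (fragments divided by gene length and library size, with a scaling between mice already in the deposited values), so levels can be compared between genes. Each of the 10 genes had between 159 and 12136 reads in each mouse. Notch1 was measured at 41.9 to 78.9 FPKM in OEx and 3.34 to 5.55 FPKM in Ctrl, with the transgene and the gene not separated. The prostate epithelial markers Pbsn and Krt8 were expressed in all 6 libraries. The summed level of 8 luminal markers was 3457 to 6829 FPKM in OEx and 25492 to 25706 FPKM in Ctrl, with 5 called lower and 1 higher. The summed level of 5 basal markers was 6.93 to 16.4 FPKM in OEx and 216 to 253 FPKM in Ctrl, with all 5 called lower and Trp63 at 0.423 FPKM or less in OEx. Ctrl replicate 3 stood apart with 16128 FPKM over 8 seminal vesicle markers against at most 4.36 FPKM in every other library, and OEx replicate 3 had 8.25 FPKM over 8 leukocyte markers against 33.9 and 34.2 FPKM in the other OEx mice and 8.40 to 15.9 FPKM in Ctrl. Summed markers of smooth muscle and fibroblasts (9 genes, 311 to 591 FPKM in OEx and 836 to 1723 FPKM in Ctrl) did not overlap between the groups either. Nor did those of endothelium (5 genes, 7.20 to 9.64 and 17.5 to 30.6 FPKM) and of dividing cells (7 genes, 27.5 to 36.5 and 21.5 to 25.3 FPKM). Singly, 4 of the 9 smooth muscle and fibroblast markers were called lower, whereas Col1a1, Col1a2, Col3a1, Dcn and Pdgfra overlapped. Col1a1 was at 75.4, 83.7 and 6.04 FPKM in OEx mice and at 11.4, 11.5 and 18.9 FPKM in Ctrl mice. Of 6 tested markers of dividing cells, only Mki67 was called, higher in OEx, and 3 did not overlap. Pcna, which had the highest level of these markers, overlapped (17.4 to 22.7 FPKM in OEx and 15.9 to 18.3 FPKM in Ctrl). For comparison with all these marker counts, 12.9% of all tested genes were called higher and 15.7% lower, and 72.4% did not overlap. The part of these cell type differences in the results below was not tested. In such bulk tissue, fewer cells of a type and less RNA per cell cannot be told apart.

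Across the pathway, 3 of the 4 synthetic enzymes and both antizymes fell in OEx mice, whereas Amd1 rose. A gene was called with a limma FDR under 0.05 over 12833 tested rows and a fold change over 2. Of the 10 genes, 6 were called, against 28.6% of all tested genes. Amd1 alone was called higher, where 12.9% of all tested genes were, and Odc1, Srm, Sms, Oaz1 and Oaz2 were called lower, where 15.7% were. Without the fold criterion all 10 passed the FDR threshold, 2 of them higher and 8 lower, and the background was then 67.2%, with 30.7% higher and 36.5% lower. The OEx and Ctrl values did not overlap for any of the 10 genes, and the same held for 72.4% of all tested genes, so that separation says little about these genes. The median log2 fold change of the 10 genes was -0.91 and that of all tested genes was -0.078.

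**Figure D1:**
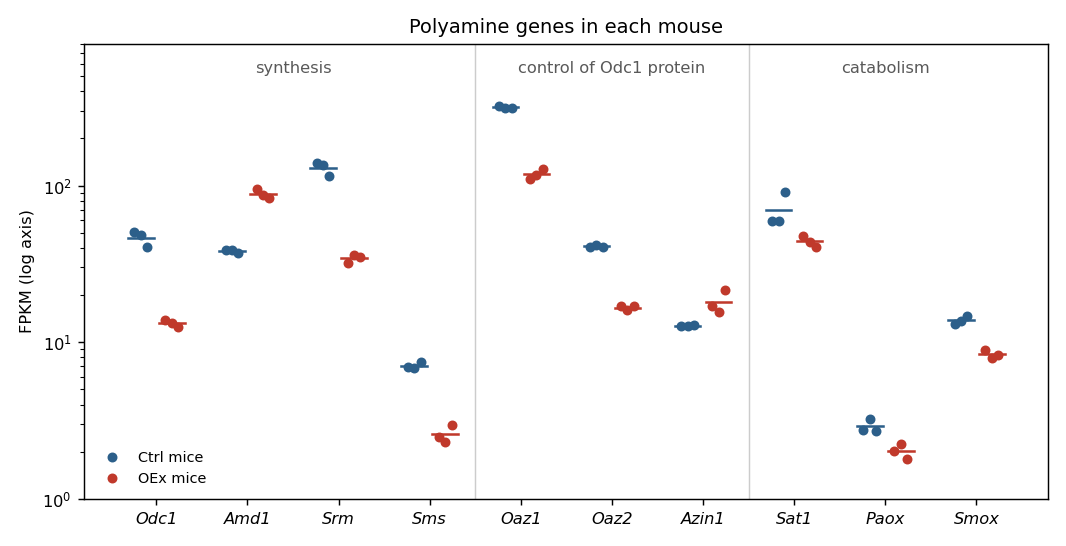
FPKM of the 10 polyamine genes in each mouse on a log axis, with Ctrl mice in blue, OEx mice in red and a short line at each group mean (n = 3). OEx values lay above Ctrl values for Amd1 and Azin1 and below them for the other 8 genes.

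Odc1, on chr12:17544794-17551505 (GRCm38, plus strand), encodes the enzyme that commits ornithine to polyamine synthesis. It was measured at 13.9, 13.3 and 12.4 FPKM in OEx mice and at 50.3, 48.2 and 40.7 FPKM in Ctrl mice. Every OEx value was far below the lowest Ctrl value, and the OEx mice lay close together. The mean was 13.2 ± 0.722 FPKM in OEx and 46.4 ± 5.04 FPKM in Ctrl (SD, n = 3), 3.52-fold lower, with a log2 fold change of -1.73 (SE 0.104, limma FDR 4.05e-05). With each mouse scaled to the same sum of FPKM it was at -0.87 and not called. An snoRNA gene lies within the Odc1 locus, and 24.3% of the runs of 50 bases in its transcripts also occur in transcripts of other genes.

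Srm, on chr4:148591503-148594993 (plus strand), makes spermidine from putrescine. Its level was 32.0, 36.0 and 34.9 FPKM in OEx mice and 140, 136 and 114 FPKM in Ctrl mice. The groups were far apart here too, and Ctrl replicate 3 was the lowest of the Ctrl mice, as for Odc1. Srm fell 3.79-fold, with a log2 fold change of -1.89 (SE 0.106, limma FDR 3.41e-05), the largest decrease among the 10 genes on the deposited values.

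Sms, on chrX:157443855-157492287 (minus strand), makes spermine from spermidine. Sms was measured at 2.48, 2.31 and 2.98 FPKM in OEx mice and at 6.90, 6.85 and 7.48 FPKM in Ctrl mice. The groups did not overlap, and replicate 3 was the highest mouse in each. Sms fell 2.73-fold, with a log2 fold change of -1.17 on the log2(FPKM + 1) scale (SE 0.103, limma FDR 1.28e-04), a scale that understates the change of a gene at so low a level. It was at -0.45 and uncalled with equal sums of FPKM.

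Amd1, on chr10:40287458-40302186 (minus strand), supplies the decarboxylated S-adenosylmethionine on which both Srm and Sms depend. The values were 95.2, 87.0 and 82.9 FPKM in OEx mice and 39.0, 38.8 and 37.2 FPKM in Ctrl mice. All OEx mice were above all Ctrl mice, and the Ctrl mice were nearly equal. Amd1 rose 2.31-fold, with a log2 fold change of 1.18 (SE 0.083, limma FDR 6.28e-05). With trends on GC content and exon length removed from each mouse, the log2 fold change of Amd1 was 0.69 and it was no longer called.

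The reads of Amd1 and Amd2 cannot be fully told apart, since 76.7% of the runs of 50 bases in Amd1 transcripts also occur in Amd2 and 85.7% of those in Amd2 occur in Amd1. Amd2, on chr10:35708675-35711892, was listed at 1.70, 1.36 and 9.74 FPKM in OEx mice and at 3.85, 3.07 and 1.25 FPKM in Ctrl mice. Its groups overlapped, with OEx replicate 3 above all others, and it did not pass the test (log2 fold change 0.21, SE 0.612, limma FDR 0.780). Added together in each mouse, Amd1 and Amd2 were at 96.9, 88.3 and 92.7 FPKM in OEx mice and at 42.8, 41.8 and 38.4 FPKM in Ctrl mice. The sum differed between the groups by 1.16 on the log2(FPKM + 1) scale, close to the value of Amd1 alone (two-sided exact permutation p = 0.1, the smallest that 3 against 3 mice allow).

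With Amd1 moving against the other enzymes, the make-up of the synthetic arm differed between the groups. Amd1 took 66.3%, 62.8% and 62.2% of the FPKM of the 4 synthetic enzymes in OEx mice and 16.5%, 16.9% and 18.6% in Ctrl mice. Srm took 24.8% ± 2.20 in OEx and 58.6% ± 1.12 in Ctrl (SD, n = 3). Odc1 took 9.52% ± 0.173 and 20.9% ± 0.474, and Sms took 1.88% ± 0.311 and 3.22% ± 0.457. The groups did not overlap for any of the 4 shares, with a two-sided exact permutation p = 0.1 for each. The leading transcript was thus Srm in every Ctrl mouse and Amd1 in every OEx mouse, a comparison that does not rest on the scaling between mice. It can depend on corrections by gene and on how reads shared between genes were counted, which was not tested. Of the runs of 50 bases, 78.1% in Amd1 transcripts and 2.01% in Srm transcripts also occur in other genes.

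Oaz1, on chr10:80826656-80829290 (plus strand), encodes the major antizyme and had the highest level of the 10 genes in both groups. The values were 111, 117 and 127 FPKM in OEx mice and 320, 314 and 312 FPKM in Ctrl mice. The Ctrl mice were almost equal, and each was above every OEx mouse. Oaz1 fell 2.67-fold, with a log2 fold change of -1.41 (SE 0.086, limma FDR 4.19e-05). A miRNA gene lies within its locus.

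Oaz2, on chr9:65668001-65690300 (plus strand), encodes a second antizyme that carries the related frameshift site printed above. The level of Oaz2 was 16.9, 16.0 and 17.1 FPKM in OEx mice and 40.5, 41.8 and 40.5 FPKM in Ctrl mice. Both groups were tight and lay well apart. Oaz2 fell 2.46-fold, with a log2 fold change of -1.25 (SE 0.073, limma FDR 3.87e-05). With GC content and exon length trends removed, the log2 fold changes of Oaz1 and Oaz2 were -0.79 and -0.77, with equal sums of FPKM they were -0.51 and -0.38, and neither was called under these settings.

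Azin1, on chr15:38487427-38519266 (minus strand), resembles Odc1 but lacks its enzyme activity and opposes the antizymes. Its level was 16.95, 15.5 and 21.7 FPKM in OEx mice and 12.7, 12.8 and 12.8 FPKM in Ctrl mice. The Ctrl mice were nearly identical, with a coefficient of variation of 0.568% against 18.0% in OEx, and OEx replicate 3 was the highest. The log2 fold change of 0.45 passed the FDR threshold without reaching the fold criterion (SE 0.128, limma FDR 0.0180), and it was -0.39 with GC content and exon length trends removed. A miRNA gene and an antisense transcript lie within the Azin1 locus, and whether the counting used strand is not given in the sources used here.

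The catabolic genes had smaller log2 fold changes than the synthetic ones, and none was called. Sat1, on chrX:155213132-155216449 (minus strand), encodes the acetyltransferase that marks spermidine and spermine for export or oxidation. It was measured at 47.8, 43.8 and 40.4 FPKM in OEx mice and at 59.5, 59.5 and 91.3 FPKM in Ctrl mice. Ctrl replicate 3, the library with seminal vesicle markers, was far above the other Ctrl mice, and the groups did not overlap. The log2 fold change was -0.63 (SE 0.181, limma FDR 0.0190), and it was 0.25 when each mouse was scaled to the same sum of FPKM.

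Smox, on chr2:131491496-131525922 (plus strand), oxidises spermine directly. Smox was at 8.96, 7.94 and 8.34 FPKM in OEx mice and at 13.0, 13.6 and 14.7 FPKM in Ctrl mice. The groups were apart by more than the range within either. The log2 fold change was -0.65 (SE 0.088, limma FDR 7.48e-04), and it was 0.18 with equal sums of FPKM. No run of 50 bases in Smox transcripts occurred in another gene.

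Paox, on chr7:140115799-140137224 (plus strand), oxidises the acetylated polyamines that Sat1 makes. Paox was at 2.01, 2.24 and 1.80 FPKM in OEx mice and at 2.77, 3.26 and 2.70 FPKM in Ctrl mice, the lowest level of the 10 genes in both groups. The highest OEx mouse was just below the lowest Ctrl mouse. The log2 fold change was -0.37 (SE 0.112, limma FDR 0.0228), and it was 0.26 with equal sums of FPKM. Paox overlaps Echs1 on the opposite strand, so that part of its reads may belong to that gene.

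The scaling between mice bears on all of these values, because the sum of FPKM was 253965 to 272224 in OEx mice and 467138 to 529972 in Ctrl mice. Setting these sums equal moved the median log2 fold change of all tested genes from -0.078 to 0.69. Relative to the median under each scaling, Odc1 lay at -1.66 as deposited and at -1.56 with equal sums, and Srm lay at -1.81 and -1.69. Amd1 lay at 1.26 and 1.38, and Sms at -1.10 and -1.14. Oaz1 lay at -1.33 and -1.21, and Oaz2 at -1.17 and -1.07. Azin1 was above the median by 0.53 and 0.61, and Sat1, Paox and Smox lay at -0.56, -0.30 and -0.57 as deposited and -0.44, -0.43 and -0.52 with equal sums. Subtracting this median removes by construction any shift shared by all genes. With equal sums, 3 of the 10 genes were called, Amd1 and Azin1 higher and Srm lower, where 35.9% of all tested genes were called higher and 3.65% lower. With GC content and exon length trends removed, Odc1, Srm and Sms were the 3 called, all lower, where 11% of all tested genes were called higher and 9.48% lower.

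**Figure D2:**
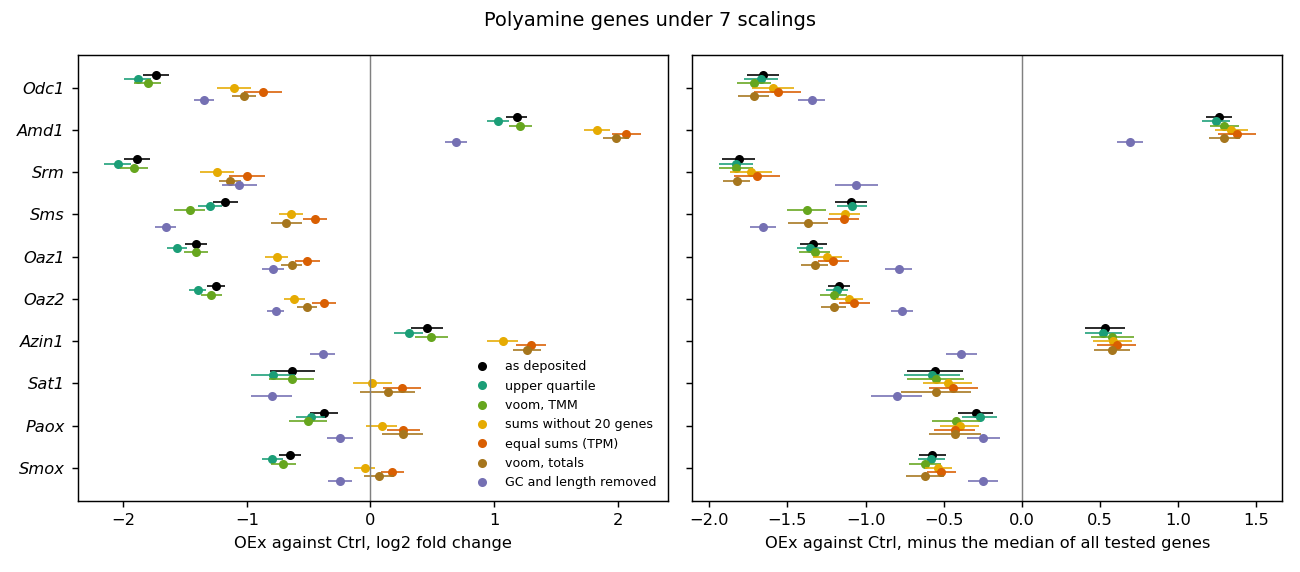
Log2 fold change of OEx against Ctrl for the 10 genes under 7 scalings (left) and the same minus the median of all tested genes (right), with points at the estimate and lines of 1 SE to each side. On the left Sat1, Paox, Smox and Azin1 cross 0, Azin1 only with GC content and exon length trends removed. On the right, a shift shared by all genes is removed by construction. There the scalings lie close for each gene, except for the values with GC content and exon length trends removed, where Azin1 lies at -0.39.

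Ratios of 2 genes within a mouse do not depend on how mice are scaled to each other, and 8 of them were compared with a two-sided exact permutation test, in which p = 0.1 is the smallest value and 0.133 the smallest after Benjamini-Hochberg adjustment. The ratio of Odc1 to its inhibitor transcript Oaz1 was 0.125, 0.113 and 0.0981 in OEx mice and 0.157, 0.153 and 0.130 in Ctrl mice. All OEx ratios were lower, with a 1.31-fold difference in which OEx replicate 1 nearly met Ctrl replicate 3. The ratio of Odc1 to Oaz2 was 0.820, 0.831 and 0.728 in OEx mice and 1.24, 1.15 and 1.004 in Ctrl mice, 1.43-fold lower. Odc1 was thus above Oaz2 in each Ctrl mouse and below it in each OEx mouse.

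The ratio of Odc1 to Azin1 was 0.818, 0.857 and 0.573 in OEx mice and 3.96, 3.78 and 3.17 in Ctrl mice. It was 4.90-fold lower in OEx mice, where Azin1 transcripts outnumbered those of Odc1 per length in every mouse. The ratio of Amd1 to Odc1 was 6.86, 6.56 and 6.67 in OEx mice and 0.775, 0.805 and 0.914 in Ctrl mice. This was the widest difference among the 8 ratios, 8.07-fold, with a log2 difference of 3.01 (SE 0.075). Ratios do depend on corrections by gene, and with GC content and exon length trends removed the fold changes of Amd1 and Odc1 differed by 2.04 on the log2 scale, or 4.11-fold, and those of Odc1 and Azin1 by 1.94-fold.

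The ratio of Sat1 to Odc1 was 3.45, 3.30 and 3.25 in OEx mice and 1.18, 1.24 and 2.25 in Ctrl mice. This ratio was higher in every OEx mouse, with Ctrl replicate 3 nearest to them. The ratio of Oaz2 to Oaz1 was 0.141 ± 0.010 in OEx and 0.130 ± 0.0032 in Ctrl (SD, n = 3), a 1.09-fold difference. The antizymes fell by nearly equal factors, although the ratios of the groups did not overlap. Sms to Srm (0.0642 to 0.0853 in OEx, 0.0493 to 0.0653 in Ctrl, exact permutation p = 0.2) and Smox to Paox (3.55 to 4.64 and 4.16 to 5.47, exact permutation p = 0.4) overlapped between the groups.

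**Figure D3:**
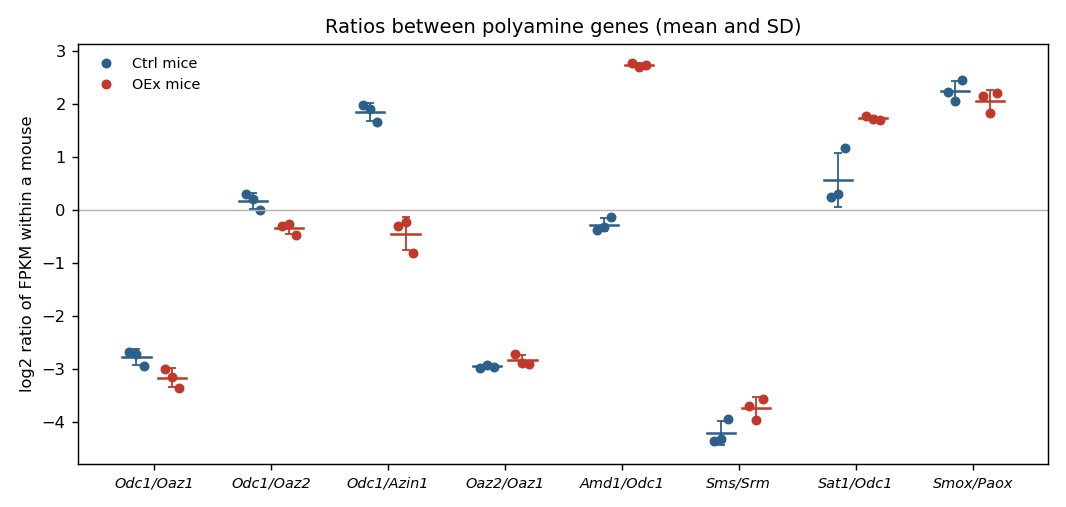
Log2 ratio of 2 polyamine genes within each mouse, with points for mice, long ticks for group means and error bars of 1 SD (n = 3), Ctrl in blue and OEx in red. The widest gap is that of Amd1 to Odc1, and Sms to Srm and Smox to Paox overlap between the groups.

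The order of levels also changed. In Ctrl mice it ran from Oaz1 through Srm, Sat1, Odc1, Oaz2, Amd1, Smox, Azin1 and Sms to Paox, with overlap between neighbours for Odc1 and Oaz2. In OEx mice it ran from Oaz1 through Amd1, Sat1, Srm, Azin1, Oaz2, Odc1, Smox and Sms to Paox, with overlap for Azin1 and Oaz2. Amd1 moved from the sixth place to the second, and Odc1 from the fourth to the seventh. Among genes averaging 10 FPKM or more, the 5 whose log2(FPKM + 1) over the 6 mice was most like that of Odc1 were Dnajb9, Tnfaip1, Farsb, Emc3 and Slc39a4, with a Pearson r of 0.9990 to 0.9995. These points share the gap between the groups, and 1756 of 4536 genes compared had an r above 0.95.

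The promoters of Amd1, the only called-higher gene, and of Odc1, at the head of the pathway, were read from a table of RefSeq promoters (GRCm38.p6), with windows from 250 bases before to 50 bases after the start, in which 8 of the 10 genes were matched. They were searched on both strands for TGGGAA, the core bound by the Notch cofactor RBPJ, and CACGTG, the E-box of Myc and Max. Capitals mark a match. The Amd1 window lies at chr10:40302139-40302438 on the minus strand and the Odc1 window at chr12:17544623-17544922 on the plus strand.
Amd1: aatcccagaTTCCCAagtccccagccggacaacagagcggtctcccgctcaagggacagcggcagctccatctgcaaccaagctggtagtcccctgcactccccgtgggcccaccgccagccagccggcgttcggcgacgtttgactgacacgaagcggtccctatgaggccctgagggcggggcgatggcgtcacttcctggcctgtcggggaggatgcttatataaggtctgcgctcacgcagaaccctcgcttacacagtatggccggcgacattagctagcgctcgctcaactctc
Odc1: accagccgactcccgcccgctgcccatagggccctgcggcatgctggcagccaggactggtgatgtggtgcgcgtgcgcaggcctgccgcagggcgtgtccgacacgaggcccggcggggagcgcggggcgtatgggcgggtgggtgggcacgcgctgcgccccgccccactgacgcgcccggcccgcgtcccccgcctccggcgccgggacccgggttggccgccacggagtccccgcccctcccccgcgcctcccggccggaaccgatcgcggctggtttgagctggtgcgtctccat
Amd1 held the RBPJ core at position -241 counted from the start, read on the opposite strand and so printed as TTCCCA, and Odc1 held neither motif in this window, whose GC content was 78%. Elsewhere, Oaz2 held the RBPJ core and Sms the E-box, and no matches overlapped. Of 32851 promoter windows of the same length, 25.6% held TGGGAA and 7.15% held CACGTG. A match of 6 letters is only a description of the sequence, and binding was not measured here.

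Of 48 other genes of the wider pathway, 35 passed the filter, and of these 5 were called higher and 12 lower (median log2 fold change -0.46), where 12.9% and 15.7% of all tested genes were. With equal sums of FPKM, 9 were called higher and 4 lower, against 35.9% and 3.65% of all genes. With GC content and exon length trends removed they were 5 and 7, against 11% and 9.48%, and each of the 17 kept its direction in both. Several uncalled genes changed sign with the scaling. Among them, Oat, Adi1, Aldh9a1, Sat2, Slc18b1 and the regulator Max were below 0 as deposited and above 0 with equal sums. The median of all tested genes moved from -0.078 to 0.69 between these scalings. Of 9 tested genes around arginine, ornithine and proline, 6 were called lower and none higher, against 15.7% and 12.9% of all tested genes, and with equal sums of FPKM 3 were called lower and Arg1 higher. Pycr1, which turns the shared intermediate of ornithine and proline synthesis into proline, was at 0.955, 0.645 and 0.788 FPKM in OEx mice and at 22.0, 23.0 and 15.6 FPKM in Ctrl mice (limma log2 fold change -3.55, FDR 2.53e-05). The groups were far apart, by the widest margin of any decrease in these lists. Ass1, which with Asl rebuilds arginine from citrulline, was at 2.49, 2.25 and 1.79 FPKM in OEx mice and at 13.4, 14.8 and 12.3 FPKM in Ctrl mice (limma, log2 fold change -2.19 and FDR 3.25e-05). Asl had a log2 fold change of -1.20, and Arg2, the mitochondrial arginase that releases ornithine, had -1.21. Aldh18a1, which makes the precursor of ornithine and proline from glutamate, had -1.88, and the arginine importer Slc7a1 had -1.50. Asl, Arg2 and Slc7a1 were not called with equal sums of FPKM. In Aldh18a1 and Slc7a1, Ctrl replicate 3 lay nearest to the OEx mice. Oat, the ornithine aminotransferase, was at 94.2 ± 4.76 FPKM in OEx and 143 ± 19.0 FPKM in Ctrl (SD, n = 3) and was not called. Arg1 (log2 fold change 0.55, limma FDR 0.0621) and Gatm (0.17, limma FDR 0.696) did not pass the test.

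The other precursor, S-adenosylmethionine, showed a single called gene. Mat2a, which makes it from methionine, was at 242, 231 and 470 FPKM in OEx mice and at 32.4, 33.2 and 33.8 FPKM in Ctrl mice. Every OEx mouse was far above the Ctrl mice, and OEx replicate 3 was well above the other OEx mice. Mat2a rose 9.48-fold, with a log2 fold change of 3.13 (SE 0.267, limma FDR 1.16e-04). Mat2a and Amd1, consecutive steps of the donor branch, were thus both called higher on the deposited values. With GC content and exon length trends removed, Mat2a was still called, at 2.69, whereas Amd1 was at 0.69 and not called. Of the 10 tested genes of this list, the other 9 were not called on the deposited values, where 12.9% of all tested genes were called higher. With equal sums of FPKM 4 of the 10 were called higher, against 35.9% of all tested genes. With GC content and exon length trends removed 2 of the 10 were, against 11%. Ahcy, which removes the by-product of methylation, had a log2 fold change of 0.76 (limma FDR 0.00191) and was called higher under both, at 1.63 and 1.22. Ahcyl1 had 0.31 (limma FDR 0.0198), and Adi1 of the methionine salvage cycle had -0.10 (limma FDR 0.577).

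All 3 tested genes of hypusination were called lower on the deposited values, where 15.7% of all tested genes were. With equal sums of FPKM none of the 3 was called, where 3.65% of all tested genes were called lower. With GC content and exon length trends removed only Eif5a was called lower, where 9.48% were. Spermidine is the source of hypusine, the modified lysine that the translation factor eIF5A needs. Eif5a was at 133, 137 and 125 FPKM in OEx mice and at 443, 436 and 429 FPKM in Ctrl mice, 3.32-fold lower (log2 fold change -1.72, limma FDR 2.64e-05). The enzymes of the modification, Dhps and Dohh, had log2 fold changes of -1.08 and -1.81 (limma FDR 6.33e-05 and 5.87e-05). Eif5a2 was under the filter. On the deposited values, the substrate and both enzymes were each lower in all OEx mice than in any Ctrl mouse. Such a gap between the groups, in either direction, was common, at 72.4% of tested rows, and does not set these 3 genes apart.

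Of 7 tested transport genes, 3 were called higher and 2 lower, against 12.9% and 15.7% of all tested genes. The counts were 3 and 1 with equal sums of FPKM, against 35.9% and 3.65%. With GC content and exon length trends removed they were 2 and 1, against 11% and 9.48%. Atp13a2, a lysosomal polyamine exporter, fell (log2 fold change -1.45, limma FDR 1.98e-04), but was not called with equal sums of FPKM (-0.59) or with GC content and exon length trends removed (-0.999). Slc3a2, the shared chain of several amino acid exchangers, fell from 121 ± 17.9 FPKM in Ctrl to 28.1 ± 0.229 FPKM in OEx (SD, n = 3). Atp13a4 and Atp13a3, relatives of Atp13a2, were called higher. Atp13a4 was at 3.95, 3.73 and 8.19 FPKM in OEx mice, with 491, 531 and 921 reads, while Ctrl mice had 0, 2 and 0 reads. Its level in Ctrl was thus at or near 0, and its fitted fold change depends on the pseudocount. Atp13a3 was at 14.2, 14.7 and 18.7 FPKM in OEx mice and at 7.83, 7.61 and 5.33 FPKM in Ctrl mice (limma, log2 fold change 1.10 and FDR 0.00127), but was not called without OEx replicate 3 (0.98), without Ctrl replicate 3 (0.94) or with GC content and exon length trends removed (0.12). Slc22a18, of the organic cation transporter family, had a log2 fold change of 1.08 (limma FDR 0.00456), and Slc18b1 (-0.077, limma FDR 0.560) was not called.

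Among 6 further tested enzymes and control genes, Gpx1 was called lower and Cat higher, where 15.7% and 12.9% of all tested genes were. With equal sums of FPKM, Gpx1 was uncalled at -0.96. Gpx1 and Cat both remove the hydrogen peroxide that polyamine oxidases release. Gpx1 was at 119, 119 and 99.4 FPKM in OEx mice and at 400.2, 387 and 450 FPKM in Ctrl mice (limma, log2 fold change -1.86 and FDR 4.13e-05). Cat was at 22.3, 22.1 and 27.4 FPKM in OEx mice and at 11.3, 11.7 and 10.9 FPKM in Ctrl mice (limma, log2 fold change 1.01 and FDR 2.40e-04), just past the fold criterion. These peroxide-removing enzymes stood on opposite sides. Aldh9a1 (-0.44, limma FDR 0.00997) and Sat2 (-0.58, limma FDR 0.0141) were not called.

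**Figure D4:**
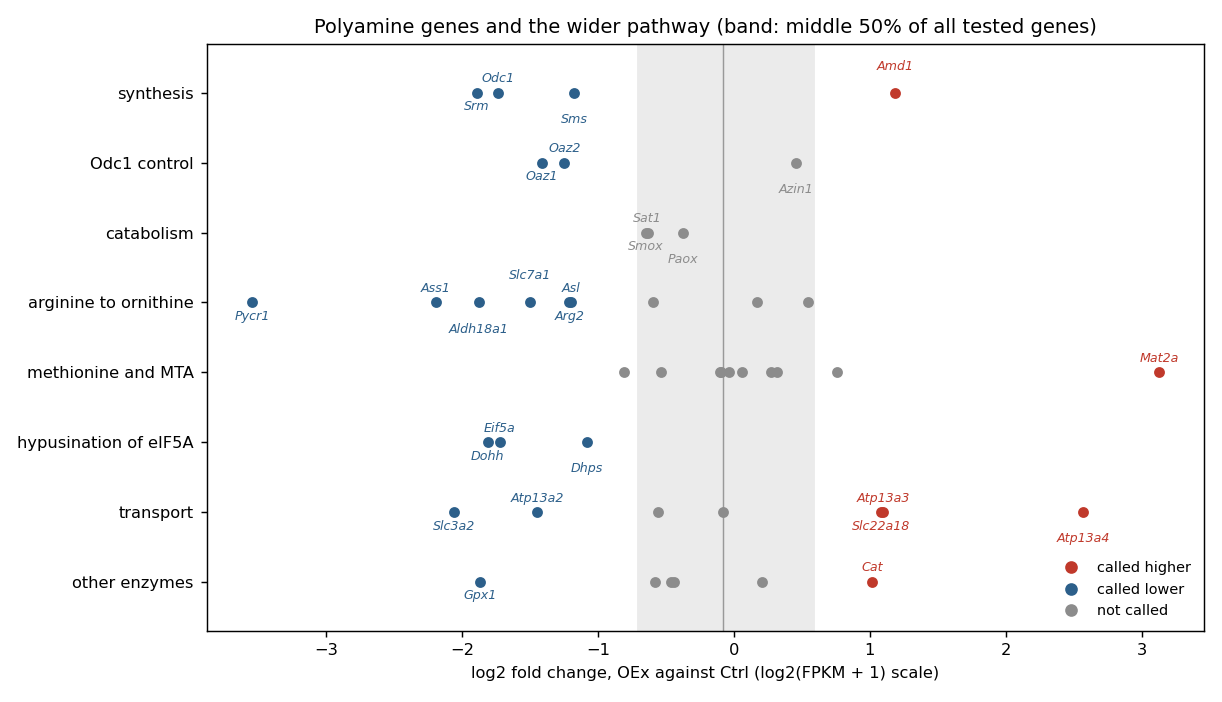
Log2 fold change of OEx against Ctrl for the tested polyamine genes and wider pathway lists, with genes called higher in red, called lower in blue and not called in grey, and the middle 50% of all tested genes as a grey band around their median. Genes from arginine to ornithine and of hypusination were called in the lower direction, and Mat2a, Amd1, Cat and 3 transport genes in the higher one.

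The Myc family and other transcription factors known to act on polyamine genes were examined in the same fit. Myc, known to activate Odc1, was at 28.4, 29.1 and 19.8 FPKM in OEx mice and at 21.7, 21.4 and 13.7 FPKM in Ctrl mice. Its groups overlapped, since replicate 3 was the lowest of each, and it did not pass the test (log2 fold change 0.44, limma FDR 0.122), but was called higher with equal sums of FPKM (1.298, limma FDR 0.00419) and was at 0.96 with GC content and exon length trends removed (limma FDR 0.00721). Mycl was at 20.0, 20.7 and 23.6 FPKM in OEx mice and at 109, 109 and 50.03 FPKM in Ctrl mice (limma, log2 fold change -1.93 and FDR 0.00143). Ctrl replicate 3 was well below the other Ctrl mice but above every OEx mouse. Max (-0.47, limma FDR 0.00931) and Nfe2l2 (0.20, limma FDR 0.133) were not called.

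Leaving out any single mouse left the same 6 of the 10 polyamine genes called. Without replicate 3 of both groups, which holds the libraries that stand apart in their markers, 6 were called as well.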

How the data were processed

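Total RNA of APs was sequenced with TruSeq libraries on an Illumina HiSeq. The values deposited by the authors are FPKM per gene symbol, in a table for each mouse, from an in-house pipeline, for which the labels name HISAT2 2.0.5, StringTie 1.3.3b, featureCounts 1.5.0-p3 and CASAVA. The genome build and the FPKM denominator are not given in the sources used here. Reads were recovered from FPKM and GENCODE M21 (GRCm38) exon lengths for 53710 of 55076 rows, and 96.9% to 97.5% of values under 1000 reads were whole within 0.05. Depth was 14772007 to 18655462 reads, and 3 reads were 0.161 to 0.203 CPM (counting error only).

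OEx and Ctrl were compared with limma 3.58.1 (R 4.3.3) on log2(FPKM + 1), with an eBayes intensity trend, over 12833 rows whose mean was 1 FPKM or more. Genes were called with Benjamini-Hochberg FDR under 0.05 and a log2 fold change above 1 in size, as in the paper. On simulated data, 196 of 200 changed genes were recovered among 11600, with 2 false calls. The simulation had equal depth, a fixed spread, few changed genes and no shift in scaling between the groups. Its false calls therefore give no error rate for these data. Ratios and sums were tested by exact permutation. Alternatives changed the pseudocount, filter, scaling, fold criterion, test (voom on recovered reads), replicate block and mice; removal of GC and length trends (lowess span 0.3) and leaving out replicate 3 of both groups were chosen after seeing the data. The genes and lists were chosen with earlier results of these data known. Genes named were the 10 members, called genes and up to 3 uncalled genes with the highest mean per list, and the 5 genes most like Odc1. Some genes of these lists and 1 motif are not reported here. Other steps used Python 3.11.15 with pandas 2.3.3, numpy 2.4.6 and scipy 1.17.1, and plots matplotlib 3.10.9.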

Additional observations from a re-analysis of the deposited data

How the results depend on the processing

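The alternatives were counted for the 10 members and Mat2a, Eif5a, Pycr1, Ass1, Slc3a2, Atp13a3, Atp13a4, Gpx1 and Amd2. Of 357 values of these genes, 314 kept their direction and their side of the threshold. Other genes named above are not in this count, among them several that lost their call or changed sign with equal sums. Reversals came from the scaling for the uncalled catabolic genes. Sat1 was at 0.25 with equal sums of FPKM, 0.013 with sums without the 20 most abundant genes and 0.14 with voom on library totals. Paox was at 0.26, 0.091 and 0.26, and Smox at 0.18 and, with voom on library totals, 0.069. With GC content and exon length trends removed, with or without the replicate block, Azin1 was at -0.39 and Amd2 at -0.26. Amd2 was at -0.82 without replicate 3 of both groups, and leaving out single mice gave -0.49 (without OEx replicate 3) to 0.60, with -0.12 without Ctrl replicate 3. The causes were not tested.

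Of the 10 polyamine genes, 6 were called as reported, 3 with equal sums of FPKM, 3 with GC content and exon length trends removed, 3 with these and the replicate block, and 10 by the FDR alone. Odc1 was at -0.87 and uncalled with equal sums. Leaving out single mice gave 6 throughout. Of the wider pathway, 17 genes were called, 26 by the FDR alone and 15 to 18 without single mice. Over all genes, 3674 were called, 8621 by the FDR alone, 2245 with a mean of at least 5 FPKM (fewer genes tested) and 3583 to 3752 without single mice. Calls were split into 1653 higher and 2021 lower as deposited, 4713 and 479 with equal sums, 3632 and 692 without the 20 most abundant genes, 4745 and 663 with voom on library totals, and 1346 and 2501 with upper-quartile scaling. The ratios that did not overlap were 6, and 6 or 7 without single mice.

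Deviations of same-numbered mice from their group means correlated at -0.194, -0.189 and -0.307. With only 3 mice per group, these values cannot settle whether same-numbered samples were processed together. With the replicate block, 3597 genes, 6 polyamine genes and 17 of the wider pathway were called. Depth limits Paox, with 159 to 251 reads.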
